A study of Mus musculus with 12 samples.

Results

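In mouse retina, 10 genes that mark transmitter and neuropeptide types of amacrine cells were followed, namely *Chat*, *Slc5a7*, *Slc18a3*, *Th*, *Vip*, *Npy*, *Sst*, *Tac1*, *Cck* and *Penk*. They were found by exact match to the gene names of the deposited expression table, where 10 of 10 names were present among 55487 genes. Amacrine cells are interneurons of the inner retina that shape the signal passed from bipolar cells to retinal ganglion cells (RGCs). Most release GABA or glycine, and many release a further transmitter or peptide by which the type is known. Starburst amacrine cells release acetylcholine and serve direction selectivity, dopaminergic amacrine cells adapt the retina to light, and peptidergic cells release VIP, neuropeptide Y, somatostatin, substance P, cholecystokinin or enkephalin from dense-core vesicles. Amacrine cells carry NMDA receptors, as RGCs do, and NMDA injected into the eye is a standard model of excitotoxic injury to the inner retina.

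RNA-seq was performed on 12 libraries of retina, 2 in each of 6 groups. WT retinas came from C57BL/6J (B6J) mice and JNK3 KO retinas from *Jnk3*-/- mice. The sh*Pax6* retinas came from mice infected with AAV2.7m8 that carries GFP and, under the U6 promoter, an shRNA against *Pax6*. Eyes of each genotype were injected with PBS (1 μL) or with NMDA (1 μL at 40 mM, 40 nmol), so that every group, controls included, had an intravitreal injection. The sh*Pax6* eyes also had an earlier injection of the vector, which the study calls intravitreal in its results and subretinal in its methods. Mice were 2 months old when they received the sh*Pax6* vector, and the age of the JNK3 KO mice at sequencing is not given in the sources used here. By the study's methods a library was made from poly(A) RNA of more than 3 pooled retinas, and none of the 12 comes from retinas that received the control vector with a scrambled shRNA, so infection and knockdown cannot be told apart. The study calls the replicates biological, but the labels do not tie the libraries of a group to separate animals or experiments, and p-values measure only the spread between these libraries.

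Expression is given as FPKM, which scales the fragments of a transcript by its length and by the depth of its library, as estimated by RSEM. No read counts can be had from FPKM, and the depth behind single values is unknown. The checks on the whole series were as follows. *Pax6* was listed at 173 to 177 FPKM in WT, against 92.8 to 94.6 FPKM in sh*Pax6* retinas under PBS, but after NMDA the WT libraries (53.8 and 55.4 FPKM) were not above the sh*Pax6* libraries (58.7 and 67.5 FPKM). *Mapk10*, which encodes JNK3, was at 42.8 and 50.7 FPKM in WT, against 8.75 and 9.47 FPKM in JNK3 KO retinas under PBS, with overlapping values after NMDA. All 12 pan-amacrine markers fixed for the check of the tissue, *Pax6* among them, were detected. Their summed levels were 837 and 852 FPKM in WT PBS retinas. FPKM summed over all genes was 805627 and 820180 in the WT NMDA libraries and between 541210 and 576922 in the other 10.

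Of the 10 members, 9 matched a promoter window in the RefSeq table (build GRCm38.p6, 250 bases before to 50 after the annotated start). Penk is not in that table. Several of these genes are textbook targets of the activity-dependent factor CREB, and the windows were searched on both strands for the palindromic cAMP response element TGACGTCA and for its half-site TGACG, which is also contained in the full element. The full element was found in 2 of the 9 members, *Sst* and *Th*, and in 1.79% of all 32851 windows of this length. The half-site was found in 7 of the 9 members and in 20.8% of all windows. It was not found in the windows of *Slc5a7* and *Npy*, which says only that these letters are not there. The motifs were chosen with the results known, and a match is no evidence of binding. The 60-base stretches that hold the match nearest the start are shown for both members with the full element and for the other peptide genes with a half-site, 5′ to 3′ on the gene's strand, with the element or half-site in capitals.
Sst, chr16:23890859-23890918, minus strand: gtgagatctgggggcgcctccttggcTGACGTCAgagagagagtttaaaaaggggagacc
Th, chr7:142900007-142900066, minus strand: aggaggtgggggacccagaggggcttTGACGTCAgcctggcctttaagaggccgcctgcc
Vip, chr10:5639111-5639170, plus strand: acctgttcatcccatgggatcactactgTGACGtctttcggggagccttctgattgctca
Tac1, chr6:7554990-7555049, plus strand: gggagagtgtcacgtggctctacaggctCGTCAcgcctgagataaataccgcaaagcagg
Cck, chr9:121495710-121495769, minus strand: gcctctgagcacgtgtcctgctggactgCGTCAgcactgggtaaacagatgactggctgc
The match started 48 bases before the annotated start in *Sst*, 45 in *Th*, 79 in *Vip*, 43 in *Tac1* and 47 in *Cck*. In *Tac1* and *Cck* the half-site is on the opposite strand and reads CGTCA here. *Sst* and *Th* share the full element. After NMDA both *Th* libraries were below their PBS libraries in each genotype. Those of *Sst* were below theirs in JNK3 KO retinas and overlapped them in WT and sh*Pax6* retinas. Whether the element plays a part was not tested.

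In PBS-treated WT retinas 5 of the 6 peptide genes stood above the transmitter genes, and *Sst* lay among them. FPKM is per length, so that levels of different genes can be set side by side. *Npy* was highest with a mean of 27.6 FPKM, followed by *Tac1* (25.8 FPKM), *Cck* (16.3 FPKM), *Vip* (10.6 FPKM) and *Penk* (6.96 FPKM), and the libraries of neighbours in this order did not overlap. Below these came *Chat* (5.76 FPKM), *Sst* (4.70 FPKM) and *Slc5a7* (4.68 FPKM), of which *Chat* and *Sst* overlapped, as did *Sst* and *Slc5a7*. *Slc18a3* (3.66 FPKM) and *Th* (2.45 FPKM) were lowest and did not overlap with each other. Genes whose mean passed 1 FPKM in any of the 6 groups were tested, 16471 in all, and 10 of 10 members were among them. In bulk retina, fewer cells of a type and less RNA per cell cannot be told apart.

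**Figure D1:**
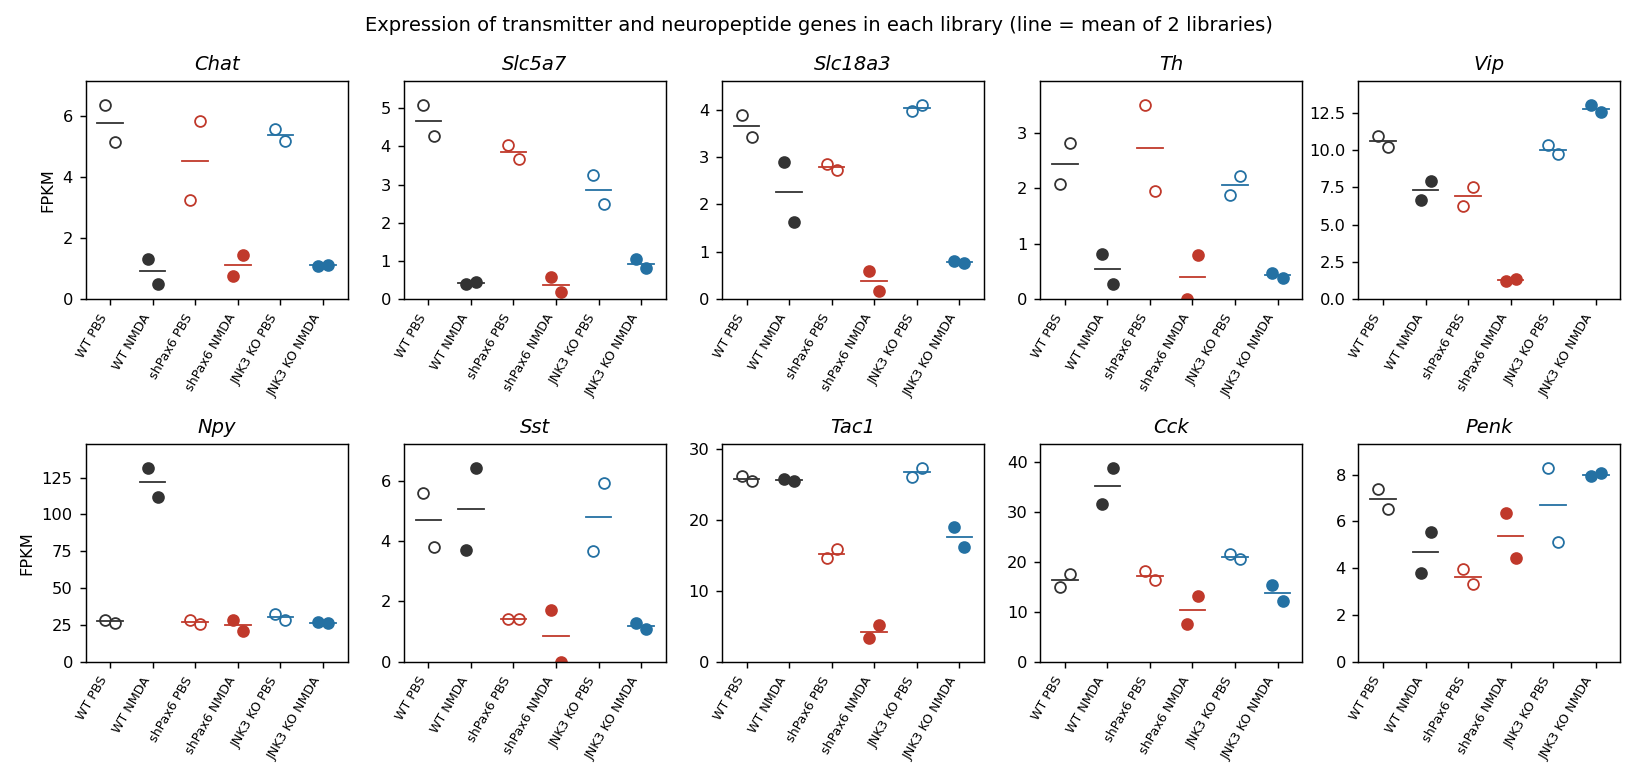
FPKM of each of the 10 genes (y axis, linear, from 0) in the 12 libraries, grouped on the x axis by genotype and injection, with open points for PBS, filled points for NMDA and a line at the mean of the 2 libraries. *Npy* stood at 112 and 132 FPKM in WT NMDA retinas and at 21.0 to 32.6 FPKM in the other 10 libraries, whereas *Chat* was at 0.49 to 1.46 FPKM in all 6 NMDA libraries and at 3.24 FPKM or more in all 6 PBS libraries.

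For the cholinergic genes the NMDA libraries were below the PBS libraries in every genotype, with 8 of 9 changes called lower, where 33.8%, 11.0% and 6.10% of all genes tested were called lower in WT, sh*Pax6* and JNK3 KO retinas. *Chat* encodes choline acetyltransferase, which makes acetylcholine. It was listed at 6.35 and 5.16 FPKM in WT PBS, against 1.33 and 0.49 FPKM in WT NMDA retinas. In sh*Pax6* retinas it was at 3.24 and 5.84 FPKM under PBS and at 0.77 and 1.46 FPKM after NMDA. JNK3 KO retinas had 5.58 and 5.18 FPKM under PBS and 1.10 and 1.11 FPKM after NMDA. Every PBS library was thus above every NMDA library, whatever the genotype. *Chat* fell by 2.66 on the log2 scale in WT (SE 0.46, adjusted p = 0.000778), by 1.93 in sh*Pax6* (SE 0.46, adjusted p = 0.0118) and by 2.18 in JNK3 KO retinas (SE 0.46, adjusted p = 0.0180). These and all later fold changes are of FPKM + 0.1, tested with limma over 16471 genes with Benjamini-Hochberg adjustment and called at an adjusted p under 0.05. In sh*Pax6* retinas the call was lost without PBS replicate 2 or NMDA replicate 1 and with the spread of the compared groups alone (adjusted p up to 0.138 over all 22 alternatives), and in JNK3 KO retinas without any one of the 4 JNK3 KO libraries (adjusted p up to 0.122).

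*Slc5a7* encodes the high-affinity choline transporter that returns choline to the terminal. Its values were 5.08 and 4.28 FPKM in WT PBS, 0.39 and 0.46 FPKM in WT NMDA, 4.03 and 3.66 FPKM in sh*Pax6* PBS, 0.57 and 0.19 FPKM in sh*Pax6* NMDA, 3.25 and 2.49 FPKM in JNK3 KO PBS and 1.04 and 0.82 FPKM in JNK3 KO NMDA retinas. The NMDA libraries were below the PBS libraries in each genotype, and the JNK3 KO NMDA libraries were above those of the other NMDA groups. It fell by 3.18 (SE 0.39, adjusted p = 9.59e-05) in WT, by 3.16 (adjusted p = 0.00039) in sh*Pax6* and by 1.52 (adjusted p = 0.0416) in JNK3 KO retinas. The last of these was no longer called in 13 of 22 alternatives (adjusted p up to 0.221), among them leaving out any of the 4 JNK3 KO, 4 WT or 2 sh*Pax6* PBS libraries in turn.

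*Slc18a3* encodes the vesicular acetylcholine transporter. The gene lies on chromosome 14 from 32462438 to 32464850 (GRCm38, GENCODE M21, minus strand), inside *Chat* (32408203 to 32465989, the same strand), in the cholinergic gene locus. None of its 2413 exonic bases is inside a *Chat* exon, but reads from unspliced *Chat* RNA would fall on it, and its values are uncertain for that reason. It was listed at 3.88 and 3.43 FPKM in WT PBS, against 2.90 and 1.62 FPKM in WT NMDA retinas, a difference that did not pass the test (log2 fold change -0.72, SE 0.43, adjusted p = 0.183). The sh*Pax6* libraries were at 2.86 and 2.72 FPKM under PBS and at 0.60 and 0.17 FPKM after NMDA, and those of JNK3 KO retinas went from 3.97 and 4.09 FPKM to 0.80 and 0.77 FPKM. It thus stayed nearest to its PBS level in the WT libraries, where *Chat* and *Slc5a7* were far below theirs. It fell by 2.73 (adjusted p = 0.00154) in sh*Pax6* and by 2.22 (adjusted p = 0.0136) in JNK3 KO retinas. The call in JNK3 KO retinas was lost without any one of the 4 JNK3 KO libraries (adjusted p up to 0.102), and that in sh*Pax6* retinas with the spread of the compared groups alone (adjusted p = 0.103). In TPM the change in WT was -1.29 and was called (adjusted p = 0.0396).

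*Th* encodes tyrosine hydroxylase, the rate-limiting enzyme of dopamine synthesis. It was at 2.08 and 2.81 FPKM in WT PBS, against 0.82 and 0.27 FPKM in WT NMDA retinas. With sh*Pax6* the values were 3.50 and 1.95 FPKM under PBS, and after NMDA one library was listed at 0 and the other at 0.79 FPKM. JNK3 KO retinas had 1.88 and 2.23 FPKM under PBS and 0.47 and 0.39 FPKM after NMDA. All 6 NMDA libraries were below all 6 PBS libraries. The fitted change passed the test in sh*Pax6* retinas, where *Th* fell by 3.19 (SE 0.89, adjusted p = 0.0243), and not in WT (-2.11, SE 0.89, adjusted p = 0.0665) or JNK3 KO retinas (-2.02, SE 0.89, adjusted p = 0.203). At an unadjusted p under 0.05 in limma and an absolute log2 fold change above 1, *Th* was called lower in every genotype. At levels this near the pseudocount the fit turned on 1 library: the sh*Pax6* call was lost without PBS replicate 1, PBS replicate 2 or NMDA replicate 1. It was also lost with the spread of the compared groups alone. The WT change was called in 7 of 22 alternatives (adjusted p from 0.00746 to 0.305).

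The peptide genes did not move as one. *Npy*, the gene of neuropeptide Y, was at 28.7 and 26.5 FPKM in WT PBS, against 132 and 112 FPKM in WT NMDA retinas. In the other genotypes it was between 20.97 and 32.6 FPKM, with 28.2 and 25.4 FPKM in sh*Pax6* PBS, 28.4 and 21.0 FPKM in sh*Pax6* NMDA, 32.6 and 28.1 FPKM in JNK3 KO PBS and 26.9 and 26.2 FPKM in the NMDA-treated JNK3 KO group. Only the WT NMDA libraries stood apart from the remaining 10. *Npy* rose by 2.14 (SE 0.15, adjusted p = 2.25e-06) in WT, whereas the changes in sh*Pax6* (-0.13, adjusted p = 0.545) and JNK3 KO retinas (-0.19, adjusted p = 0.497) did not pass the test. With a correction for transcript length the rise in WT was 1.20 (adjusted p = 0.000358).

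*Cck*, the gene of cholecystokinin, was at 15.04 and 17.6 FPKM in WT PBS, against 31.6 and 38.8 FPKM in WT NMDA retinas. It was at 18.1 and 16.3 FPKM in sh*Pax6* PBS, 7.51 and 13.2 FPKM in sh*Pax6* NMDA, 21.6 and 20.5 FPKM in JNK3 KO PBS and 15.4 and 12.2 FPKM in JNK3 KO NMDA retinas. The WT NMDA libraries were thus the highest of the 12, and the NMDA libraries of the other genotypes were below their own PBS libraries. *Cck* rose by 1.10 (SE 0.24, adjusted p = 0.0032) in WT and fell by 0.78 (SE 0.24, adjusted p = 0.0370) in sh*Pax6* retinas. The change of -0.62 in JNK3 KO retinas did not pass the test (adjusted p = 0.150). The rise in WT was 0.11 with the length correction (adjusted p = 0.721) and was not called in TPM either. The fall in sh*Pax6* retinas was lost in 14 of 22 alternatives (adjusted p up to 0.257), among them leaving out any single library other than sh*Pax6* NMDA replicate 2.

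*Vip*, the gene of vasoactive intestinal peptide, had NMDA libraries that did not overlap between any of the 3 genotypes. It was at 10.98 and 10.2 FPKM in WT PBS, against 6.66 and 7.95 FPKM in WT NMDA retinas. In sh*Pax6* retinas it was at 6.27 and 7.52 FPKM under PBS and at 1.21 and 1.37 FPKM after NMDA. In JNK3 KO retinas it was at 10.4 and 9.72 FPKM under PBS and at 13.01 and 12.5 FPKM after NMDA, so that here the NMDA libraries were the higher ones. *Vip* fell by 0.54 (SE 0.15, adjusted p = 0.0118) in WT and by 2.33 (SE 0.15, adjusted p = 7.97e-06) in sh*Pax6* retinas, and the change in JNK3 KO retinas was 0.34 (SE 0.15, adjusted p = 0.198). The call in WT was lost without WT PBS replicate 1 or WT NMDA replicate 1 (adjusted p up to 0.0729), and the fall was 1.08 with the length correction (log2 fold change -1.08, adjusted p = 0.000417).

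*Tac1*, the precursor gene of substance P and neurokinin A, was at 26.2 and 25.5 FPKM in WT PBS, against 25.8 and 25.6 FPKM in WT NMDA retinas. It was at 14.6 and 16.0 FPKM in sh*Pax6* PBS and at 3.35 and 5.17 FPKM in sh*Pax6* NMDA retinas. JNK3 KO retinas had 26.1 and 27.3 FPKM under PBS and 19.1 and 16.1 FPKM after NMDA. The 4 WT libraries lay within 1 FPKM of each other, whereas the NMDA libraries of the other genotypes were below their PBS libraries. *Tac1* fell by 1.85 (SE 0.18, adjusted p = 7.87e-05) in sh*Pax6* retinas. The change was -0.01 in WT (adjusted p = 0.981) and -0.60 in JNK3 KO retinas (adjusted p = 0.0619). With the length correction *Tac1* was called lower in WT too (-0.76, adjusted p = 0.0066).

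*Sst*, the gene of somatostatin, was at 5.60 and 3.80 FPKM in WT PBS, against 3.71 and 6.42 FPKM in WT NMDA retinas. In sh*Pax6* retinas both PBS libraries were at 1.41 FPKM, and after NMDA one was at 1.70 FPKM and the other was listed at 0. JNK3 KO retinas had 3.67 and 5.93 FPKM under PBS and 1.27 and 1.08 FPKM after NMDA. The WT groups overlapped, and the JNK3 KO groups did not. None of the 3 changes passed the test (log2 fold change 0.08, -1.83 and -1.91 in WT, sh*Pax6* and JNK3 KO retinas, SE 1.04 each, adjusted p from 0.222 to 0.968). Without the sh*Pax6* library listed at 0 the sh*Pax6* change was 0.25, and without the other sh*Pax6* NMDA library it was -3.92 and was called.

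*Penk*, the precursor gene of the enkephalins, was at 7.39 and 6.53 FPKM in WT PBS, 3.81 and 5.55 FPKM in WT NMDA, 3.95 and 3.31 FPKM in sh*Pax6* PBS, 6.34 and 4.45 FPKM in sh*Pax6* NMDA, 8.28 and 5.12 FPKM in JNK3 KO PBS and 7.92 and 8.06 FPKM in JNK3 KO NMDA retinas. The NMDA libraries lay below the PBS libraries in WT, above them in sh*Pax6* and among them in JNK3 KO retinas. No change passed the test (log2 fold change -0.58, 0.54 and 0.29, adjusted p = 0.0964, 0.173 and 0.591). In WT it was -1.18 and called with the length correction (adjusted p = 0.00667).

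**Figure D2:**
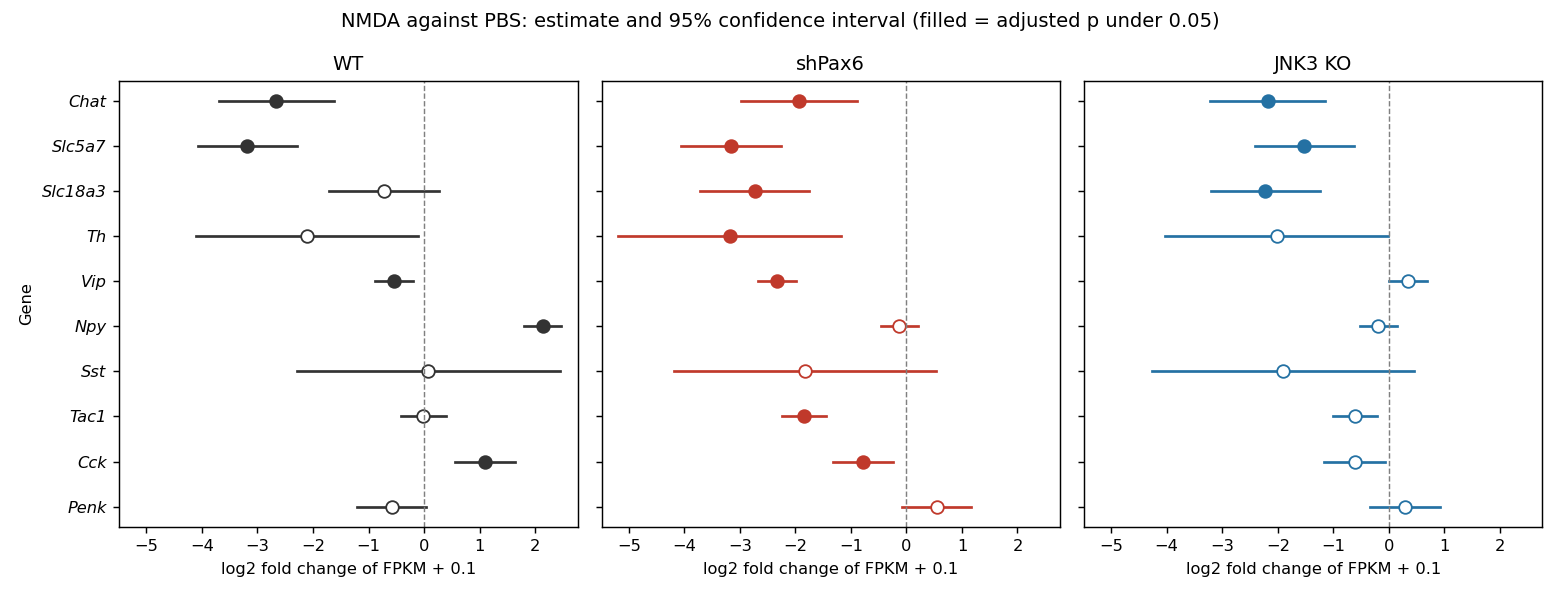
Log2 fold change of FPKM + 0.1 for NMDA against PBS (x axis) of each gene (y axis) in WT, sh*Pax6* and JNK3 KO retinas, as the limma estimate with its 95% confidence interval, filled where the adjusted p was under 0.05. In WT *Npy* and *Cck* were filled and higher, 7 genes were filled and lower in sh*Pax6*, and the 3 cholinergic genes were the filled ones in JNK3 KO retinas.

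Counted over the 10 members, 2 were called higher and 3 lower after NMDA in WT retinas, where 26.0% of all genes tested were called higher and 33.8% lower. In WT the count was near the background on the FPKM scale, but not under every scaling: with TPM 1 was called higher and 7 lower, against 12.5% and 47.4% of all genes, and with the length correction 1 and 6, against 23.9% and 22.7%. In sh*Pax6* retinas 7 of 10 were called lower and 0 higher, against 11.0% lower and 19.1% higher over all genes. In JNK3 KO retinas 3 of 10 were called lower and 0 higher, against 6.10% and 4.33%. Over the 10 members, the median log2 change was -0.56 in WT, -1.89 in sh*Pax6* and -1.07 in JNK3 KO retinas, beside -0.09, 0.10 and -0.01 over all genes tested. The JNK3 KO count fell when any of the 4 JNK3 KO libraries was left out and rose when either sh*Pax6* NMDA library was left out. The share of all genes called in JNK3 KO retinas fell and rose in the same way. The sh*Pax6* count was 1 when the spread was taken from the compared groups alone, where the share of all genes called went from 30.2% to 5.93%.

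Under PBS alone, 2 of 10 members differed between sh*Pax6* and WT retinas, *Vip* and *Tac1*, both lower, where 11.2% of all genes were called lower and 5.36% higher. The log2 difference was -0.62 for *Vip* (SE 0.15, adjusted p = 0.0223) and -0.76 for *Tac1* (SE 0.18, adjusted p = 0.0188), and for both the sh*Pax6* libraries were below the WT libraries. *Penk* (-0.92, adjusted p = 0.0510), *Sst* (-1.64, adjusted p = 0.338), *Slc18a3* (-0.38, adjusted p = 0.627) and *Slc5a7* (-0.27, adjusted p = 0.708) were also lower in both sh*Pax6* libraries than in both WT libraries without passing the test. With so few libraries a group, such separation carries little weight. Its share over all genes was not counted, so no common lowering of the members can be read from it. At an unadjusted p under 0.05 and an absolute log2 fold change above 1, limits the study used together with one on variance-mean ratios that was not applied here, 0 of 10 members were called, beside 6.79% of all genes, and 3 of 10 were at an unadjusted p under 0.05 in limma. The calls of *Vip* and *Tac1* were lost without WT PBS replicate 1, WT PBS replicate 2 or sh*Pax6* PBS replicate 1 (adjusted p up to 0.132 and 0.110). Between JNK3 KO and WT retinas under PBS limma called 0 of 10 members, 0 at an unadjusted p under 0.05 too, where 1.10% of all genes were called higher and 0.407% lower. The log2 differences there ranged from -0.69 for *Slc5a7* to 0.37 for *Cck*.

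The response to NMDA itself differed between genotypes for 6 of 10 members when WT was set against sh*Pax6* retinas, 5 with the higher and 1 with the lower log2 response in WT, where 18.3% and 31.4% of all genes were called. *Npy* differed by 2.27 (SE 0.21, adjusted p = 3.54e-05), *Cck* by 1.88 (SE 0.34, adjusted p = 0.00164), *Tac1* by 1.84 (SE 0.25, adjusted p = 0.000326), *Vip* by 1.79 (SE 0.21, adjusted p = 0.000149) and *Slc18a3* by 2.01 (SE 0.61, adjusted p = 0.0231). *Penk* differed in the opposite direction (-1.13, SE 0.39, adjusted p = 0.0380), and this difference was lost in 11 of 22 alternatives, while that of *Slc18a3* was lost in 7. For *Chat* the difference was -0.73 with a 95% confidence interval from -2.20 to 0.74, and for *Slc5a7* -0.02 (-1.29 to 1.24), which leaves room for differences of more than 1 in either direction for *Slc5a7*, whose estimate turned direction in 6 of 22 alternatives. Leaving out single libraries put the count between 4 and 7.

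Set against JNK3 KO retinas, 4 of 10 responses differed, 2 higher and 2 lower in WT, where 23.5% and 27.9% of all genes were called. *Npy* differed by 2.32 (SE 0.21, adjusted p = 1.92e-05) and *Cck* by 1.72 (SE 0.34, adjusted p = 0.00232). *Vip* (-0.88, SE 0.21, adjusted p = 0.00673) and *Slc5a7* (-1.66, SE 0.56, adjusted p = 0.0326) had the lower response in WT. With the length correction *Cck* (0.59, adjusted p = 0.187) and *Slc5a7* (-0.60, adjusted p = 0.458) were no longer called, and *Slc5a7* was also lost without any one of the 8 WT and JNK3 KO libraries. *Slc18a3* (1.50, adjusted p = 0.0693) missed the threshold, as did *Penk* (-0.87, adjusted p = 0.0901). The response of *Penk* was called lower in WT with the length correction (-1.58, adjusted p = 0.0122) and in TPM (-1.47, adjusted p = 0.0103). These comparisons share the WT libraries with the ones above.

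Between sh*Pax6* and JNK3 KO retinas the responses of *Vip* (-2.67, SE 0.21, adjusted p = 7.52e-05) and *Tac1* (-1.24, SE 0.25, adjusted p = 0.00972) were the 2 of 10 that differed, both lower in sh*Pax6* retinas, where 5.62% of all genes were called lower and 12.1% higher. The interval for *Chat* was -1.22 to 1.72 and that for *Npy* -0.41 to 0.53, with the estimate for *Npy* (0.06) turning direction in 6 of 22 alternatives. *Vip* was the one member called in all 3 of these comparisons of responses.

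**Figure D3:**
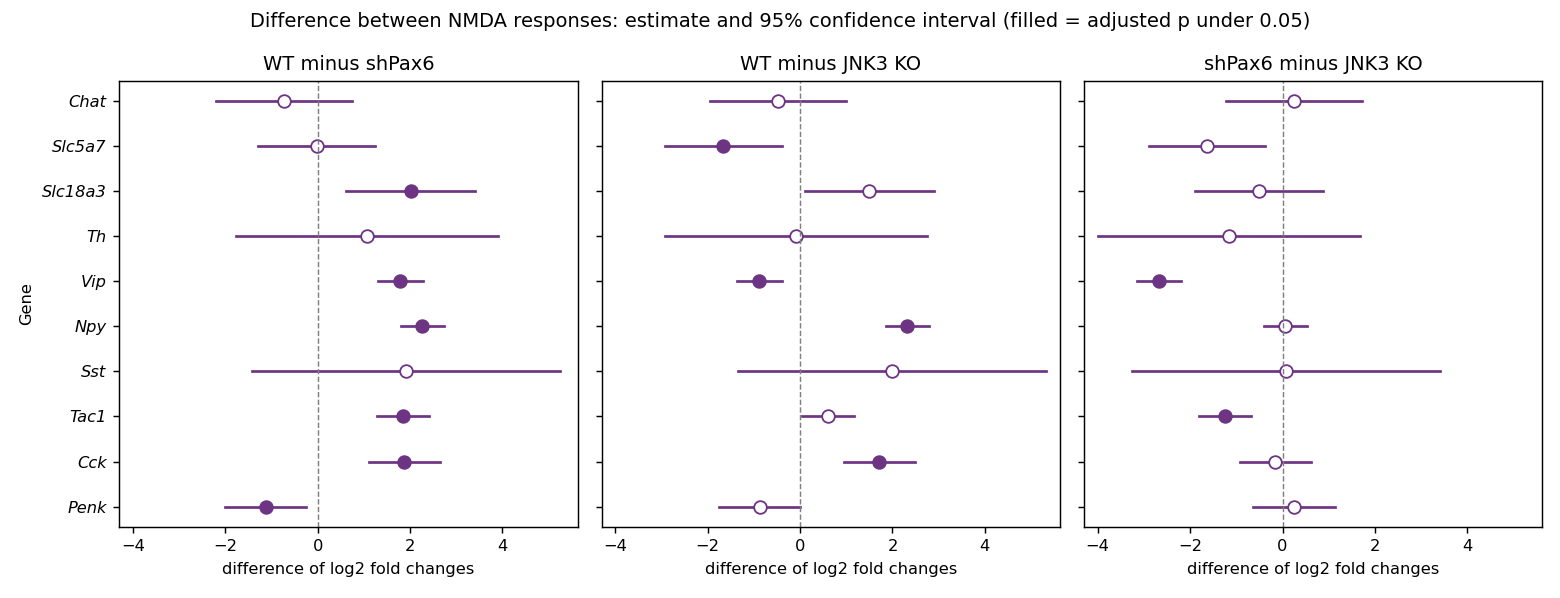
Difference between the log2 responses to NMDA of a pair of genotypes (x axis) for each gene (y axis), as the limma estimate with its 95% confidence interval, filled where the adjusted p was under 0.05. *Npy* and *Cck* had higher responses in WT than in either other genotype, and *Vip* had its lowest response in sh*Pax6* and its highest in JNK3 KO retinas.

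In WT retinas the change after NMDA followed the length of the gene's main transcript, the transcript with the highest mean FPKM. Over all 16443 tested genes with a length, Spearman's rho across genes was -0.540 in WT, -0.158 in sh*Pax6* and 0.226 in JNK3 KO retinas. The median log2 fold change in WT was 0.84 for genes under 1 kb, 0.59 up to 2 kb, -0.20 up to 4 kb and -1.07 for longer ones. Over the 10 members rho was -0.976 in WT, -0.758 in sh*Pax6* and -0.491 in JNK3 KO retinas, a description of 10 genes that share the same libraries. *Npy* (566 bases), *Cck* (691 bases) and *Sst* (721 bases) are the shortest, and *Slc18a3* (2413 bases), *Chat* (2858 bases) and *Slc5a7* (5180 bases) the longest.

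After the smooth trend with length was taken out of each library, *Npy* (1.20), *Chat* (-2.45, adjusted p = 0.00199) and *Slc5a7* (-2.23, adjusted p = 0.00155) kept their calls in WT. *Cck* did not, and *Tac1*, *Penk* and *Th* (-2.45, adjusted p = 0.0473) were then called lower. The differences of *Npy* between WT and the other genotypes were 1.61 (adjusted p = 0.000865) and 1.25 (adjusted p = 0.00318) with this correction.

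**Figure D4:**
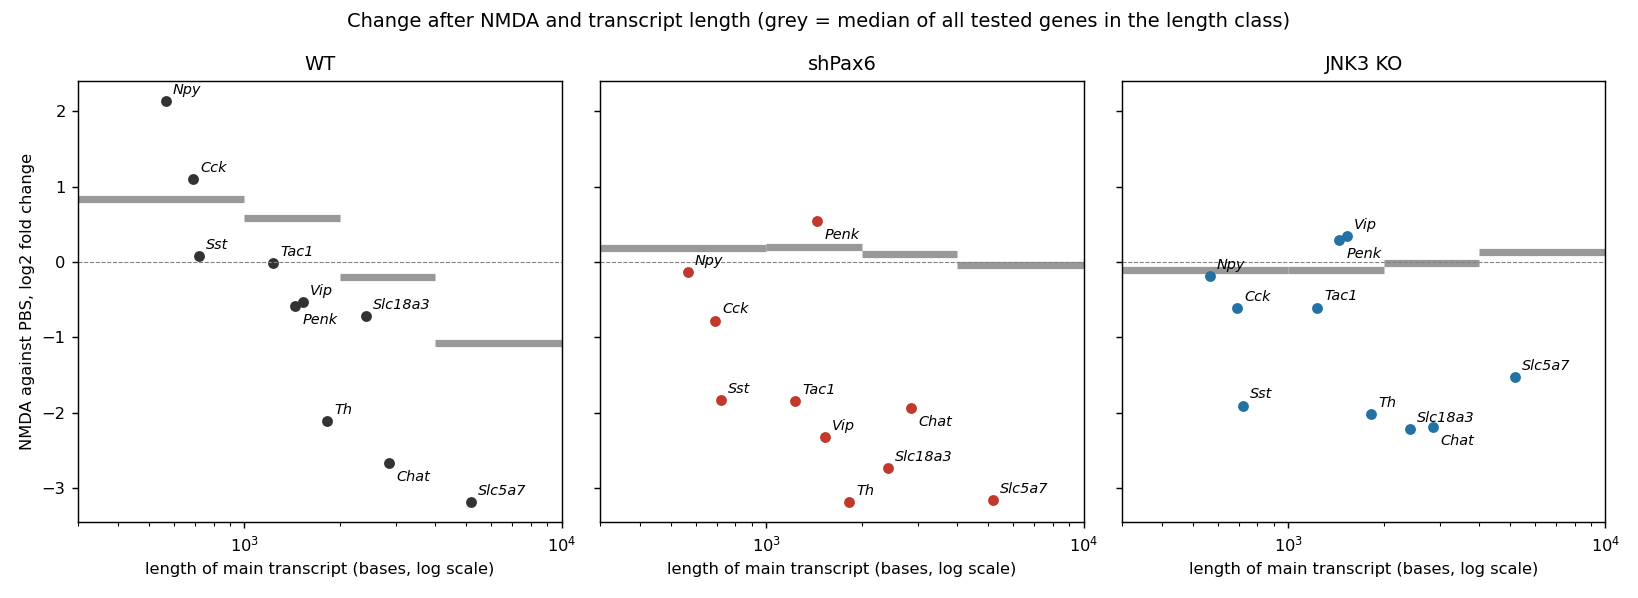
Log2 fold change for NMDA against PBS (y axis) of the 10 genes against the length of their main transcript in bases (x axis, log scale) in WT, sh*Pax6* and JNK3 KO retinas, with grey bars for the median of all tested genes in 4 length classes with limits at 1, 2 and 4 kb. In WT the points ran from *Npy* (566 bases, 2.14) to *Slc5a7* (5180 bases, -3.18) and the grey bars from 0.84 to -1.07, whereas in JNK3 KO retinas they ran from -0.10 and -0.11 in the shorter classes to -0.02 and 0.13 in the longer ones.

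Values by transcript showed where gene totals rest on the assignment of reads among isoforms. The longest protein-coding form of *Slc5a7* (5180 bases) was at 4.74 and 2.84 FPKM in WT PBS and listed at 0 in both WT NMDA libraries, whose gene values of 0.39 and 0.46 FPKM were all in a retained-intron form. *Cck-205* (478 bases) was listed at 17.6 FPKM in WT NMDA replicate 2, at 3.16 and 3.89 FPKM in WT PBS and sh*Pax6* PBS replicate 2, and at 0 in the other 9 libraries. The main form *Cck-201* alone was at 14.4 and 13.1 FPKM in WT PBS, against 28.4 and 19.5 FPKM in WT NMDA retinas, still apart. *Penk-202* was at 2.71 and 2.23 FPKM in WT PBS, against 0 in both WT NMDA libraries, while *Penk-201* was at 4.67 and 4.30 FPKM and at 3.81 and 5.55 FPKM, so that the difference in *Penk* between these groups lay in the former. *Npy*, *Sst* and *Slc18a3* have 1 listed transcript each.

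The other genes of these systems were given by lists, whose counts stand beside the shares of all genes called after NMDA, 26.0% higher and 33.8% lower in WT, 19.1% and 11.0% in sh*Pax6* and 4.33% and 6.10% in JNK3 KO retinas. In WT these shares varied with transcript length. Of genes over 4 kb 75.7% were called lower, and 39.4% of those under 1 kb and 49.7% of those of 1 to 2 kb were called higher. The lists were neither matched nor corrected for length. Pan-amacrine markers, which include *Gad2*, an enzyme of GABA synthesis, were called lower in 10 of 12 in WT, 10 of 12 in sh*Pax6* and 4 of 12 in JNK3 KO retinas, with 0 called higher and medians of -1.49, -1.49 and -0.46. *Gad2* fell by 2.09 (adjusted p = 1.89e-06) in WT and by 1.91 (adjusted p = 1.6e-05) in sh*Pax6* retinas, and its change in JNK3 KO retinas was -0.08 (adjusted p = 0.792). The list includes *Pax6*, the target of the knockdown, at 173 and 177 FPKM in WT PBS and 94.6 and 92.8 FPKM in sh*Pax6* PBS retinas. Part of the lower sum with sh*Pax6* is therefore *Pax6* itself. The summed level of the 12 markers was 837 and 852 FPKM in WT PBS, 534 and 520 FPKM in sh*Pax6* PBS and 825 and 829 FPKM in JNK3 KO PBS retinas. After NMDA it was 336 and 327 FPKM in WT, 209 and 187 FPKM in sh*Pax6* and 469 and 479 FPKM in the JNK3 KO group. In that genotype the cholinergic members were thus called lower where *Gad2* and *Tfap2b* (0.25, adjusted p = 0.154), a transcription factor of amacrine cells, were not.

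Other markers of starburst cells were counted beside *Chat*. Of 5 tested, 5 were called lower in WT, 2 lower and 1 higher in sh*Pax6* and 0 lower and 2 higher in JNK3 KO retinas. *Megf10*, a receptor that spaces starburst cells, changed by -1.82 (adjusted p = 0.000126) in WT, 0.43 (adjusted p = 0.199) in sh*Pax6* and 0.87 (adjusted p = 0.0471) in JNK3 KO retinas. *Slit2*, a guidance ligand, changed by -2.55 (adjusted p = 2.5e-06), -0.71 (adjusted p = 0.0157) and 0.19 (adjusted p = 0.588) in the same order. *Isl1*, a transcription factor also found in RGCs and ON bipolar cells, fell by 1.36 (adjusted p = 3.47e-06) in WT and changed by -0.06 and 0.04 in sh*Pax6* and JNK3 KO retinas. *Megf11*, of the same list, was lower after NMDA in every genotype. It went from 6.65 and 5.65 FPKM to 1.91 and 1.93 FPKM in WT retinas. With sh*Pax6* it went from 4.68 and 4.74 FPKM to 1.68 and 1.46 FPKM, and in JNK3 KO retinas from 4.99 and 6.15 FPKM to 3.67 and 3.87 FPKM. The summed level of the list in JNK3 KO retinas was 86.7 and 86.2 FPKM under PBS and 104 and 103 FPKM after NMDA. Most of this sum was *Slit2* and *Isl1*. The 3 cholinergic members together went from 12.8 and 11.8 FPKM to 2.94 and 2.7 FPKM there.

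Among genes of acetylcholine breakdown and reception, 9 of 12 tested were called lower and 0 higher in WT, 5 lower and 2 higher in sh*Pax6* and 5 lower and 0 higher in JNK3 KO retinas, beside 33.8%, 11.0% and 6.10% of all genes called lower. *Chrnb3* and *Chrna6*, nicotinic receptor subunits, were called lower in each, with log2 changes of -2.19, -1.26 and -0.73 and of -1.59, -1.23 and -1.17 in WT, sh*Pax6* and JNK3 KO retinas. *Chrna7* fell by 3.22 (adjusted p = 4.85e-05) in WT, with -1.06 (adjusted p = 0.0532) and -0.26 (adjusted p = 0.736) in the others. Of 13 tested dopamine genes, 6 were called higher and 4 lower in WT, 4 higher and 2 lower in sh*Pax6* and 0 by limma in JNK3 KO retinas, where 1 was at an unadjusted p under 0.05. *Slc18a2*, the vesicular monoamine transporter, fell by 2.45 (adjusted p = 0.00186) in WT and changed by -0.50 (adjusted p = 0.478) and -0.04 (adjusted p = 0.993) in sh*Pax6* and JNK3 KO retinas. *Drd5*, a dopamine receptor, fell by 2.32 (adjusted p = 0.00201) in WT, and its change was -3.25 (adjusted p = 0.000867) in sh*Pax6* and -0.83 (adjusted p = 0.327) in JNK3 KO retinas. In sh*Pax6* retinas *Drd5* went from 0.99 and 0.73 FPKM to 0 in both libraries, so the size of that change depends on the pseudocount. *Spr*, sepiapterin reductase, which makes the cofactor of tyrosine hydroxylase, rose by 1.68 (adjusted p = 1.38e-06) in WT, with 0.00340 (adjusted p = 0.997) and 0.22 (adjusted p = 0.262) in the others. *Nr4a2*, a transcription factor of dopaminergic neurons, fell by 2.02 (adjusted p = 0.00158) in WT, with -0.84 and -0.09 in the others.

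For the neuropeptides, the enzymes and granule proteins that process all of them were called higher in 5 and lower in 6 of 13 in WT, higher in 1 and lower in 10 in sh*Pax6* and lower in 9 with 0 higher in JNK3 KO retinas, beside the shares of all genes called lower of 33.8%, 11.0% and 6.10% and called higher of 26.0%, 19.1% and 4.33%. *Pcsk1*, a prohormone convertase, fell by 2.73 (adjusted p = 3.23e-05) in WT and by 2.39 (adjusted p = 0.000306) in sh*Pax6* retinas, with -0.55 (adjusted p = 0.283) in JNK3 KO retinas. *Pcsk1n*, the gene of a convertase inhibitor, rose by 1.56 (adjusted p = 4.84e-05) in WT and fell by 0.58 (adjusted p = 0.0342) in sh*Pax6* retinas, with -0.58 (adjusted p = 0.0703) in JNK3 KO retinas. *Cadps*, which primes dense-core vesicles, fell by 1.60 (adjusted p = 4.98e-07) in WT and by 0.75 (adjusted p = 0.000223) in sh*Pax6* retinas. Of 18 receptors of the member peptides 6 passed the filter, and 3, 2 and 0 of these were called lower in WT, sh*Pax6* and JNK3 KO retinas, with 1, 0 and 0 higher by limma, and 0 of the 6 in JNK3 KO retinas were at an unadjusted p under 0.05. *Vipr2*, a VIP receptor, fell by 1.15 (adjusted p = 0.000413) in WT, and *Tacr3*, the neurokinin B receptor, by 1.11 (adjusted p = 0.000664). *Sstr2*, a somatostatin receptor, fell by 2.47 (adjusted p = 0.0160) in sh*Pax6* retinas, from 1.26 and 0.94 FPKM to 0 and 0.36 FPKM, values near the pseudocount.

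Of 10 other precursors of neuropeptides tested, 2 were called higher and 4 lower in WT, 1 higher and 3 lower in sh*Pax6* and 0 higher and 3 lower in JNK3 KO retinas. *Crh*, the gene of corticotropin-releasing hormone, which some amacrine cells express, changed by -2.20 (adjusted p = 0.0033) in WT, -4.55 (adjusted p = 0.000151) in sh*Pax6* and -3.68 (adjusted p = 0.00201) in JNK3 KO retinas. *Pomc*, the precursor of melanocortins and β-endorphin, rose by 1.96 (adjusted p = 0.00148) in WT, with -0.01 and -0.33 in the other genotypes. *Nmb*, the gene of neuromedin B, rose by 1.62 (adjusted p = 0.0196) in WT.

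**Figure D5:**
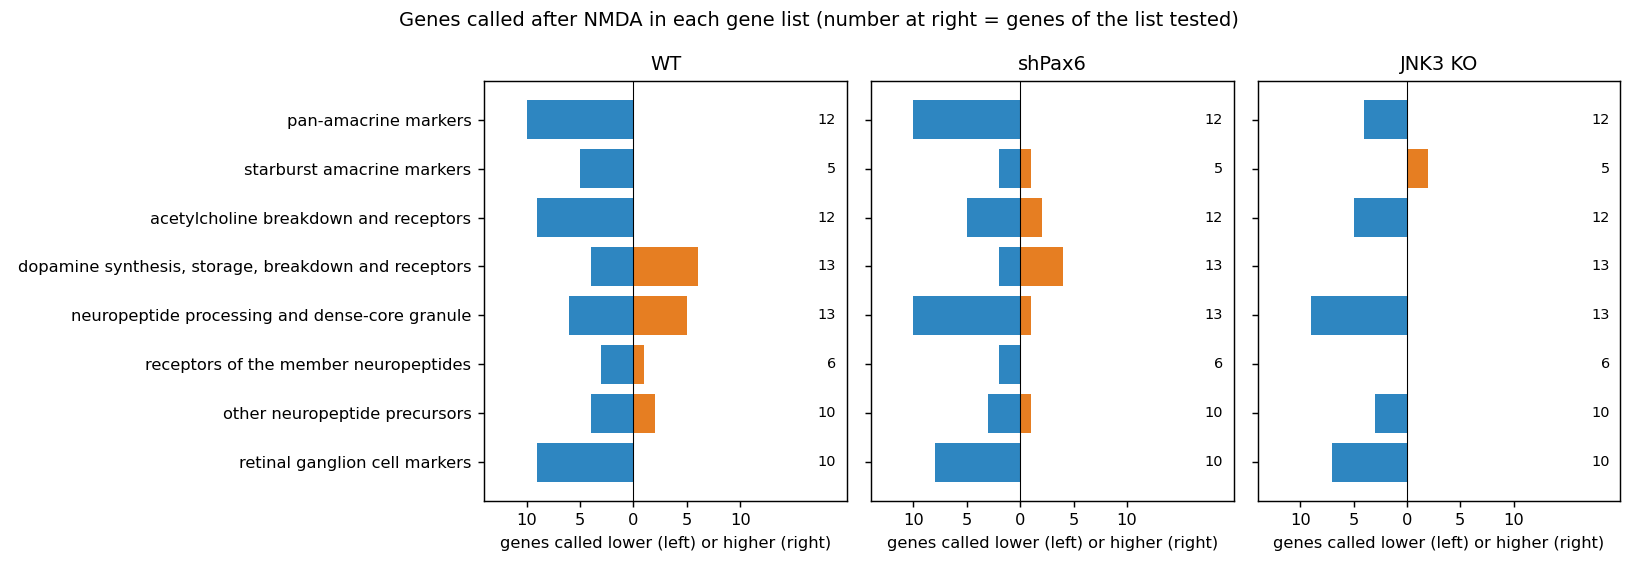
Number of genes called lower (bars to the left) or higher (bars to the right) after NMDA at an adjusted p under 0.05 in 8 gene lists (y axis) in WT, sh*Pax6* and JNK3 KO retinas, with the number tested at the right of each row. Pan-amacrine markers had 10, 10 and 4 of 12 genes lower, and genes of neuropeptide processing had 6, 10 and 9 of 13 lower and 5, 1 and 0 higher.

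Markers of other cells moved with the same groups. The summed level of 8 neutrophil and monocyte markers was 227 and 251 FPKM in WT PBS and 1953 and 1990 FPKM in WT NMDA retinas, where *Npy* and *Cck* were higher, and 4 of the 8 were called higher and 3 lower. It was 18.9 and 15.5 FPKM in sh*Pax6* PBS, 94.8 and 98.8 FPKM in sh*Pax6* NMDA, 165 and 177 FPKM in JNK3 KO PBS and 21.3 and 22.3 FPKM in JNK3 KO NMDA retinas. Of the 8, 7 were called higher and 0 lower in sh*Pax6* retinas, where the change of *Npy* did not pass the test, and in JNK3 KO retinas 1 was called higher and 5 lower. The 10 markers of RGCs, cells that also express some of these peptides, summed to 566 and 587 FPKM in WT PBS, 317 and 335 FPKM in WT NMDA, 168 FPKM in each sh*Pax6* PBS library and 55.5 and 48.8 FPKM in sh*Pax6* NMDA retinas, the group in which *Tac1* and *Vip* were lowest. JNK3 KO retinas had 581 and 539 FPKM under PBS and 140 and 141 FPKM after NMDA. Of the RGC markers, 9, 8 and 7 of 10 were called lower in WT, sh*Pax6* and JNK3 KO retinas and 0 higher. Markers of the retinal pigment epithelium (RPE) and choroid were called lower in 4 of 5 tested in sh*Pax6* retinas, where 7 members were called lower, and their sum went from 59.2 and 52.0 FPKM to 20.1 and 14.7 FPKM. In WT 2 of these 5 were called higher and 1 lower, and 0 were called by limma in JNK3 KO retinas, 0 at an unadjusted p under 0.05 too. Horizontal cell markers were called lower in 5 of 6 and higher in 1 in WT, lower in 3 in sh*Pax6* and lower in 1 and higher in 1 in JNK3 KO retinas. Müller glia markers summed to 915 and 952 FPKM in WT PBS and 1809 and 1798 FPKM in WT NMDA, to 1769 and 1666 FPKM and then 2911 and 3143 FPKM in sh*Pax6*, and to 1051 and 1034 FPKM and then 1322 and 1347 FPKM in JNK3 KO retinas. The Müller glia markers did not move together: of 6, 3 were called higher and 3 lower in WT retinas. In sh*Pax6* and in JNK3 KO retinas 3 were called higher and 1 lower. No marker of these lists was at 0 in all libraries. The part of these cells in the values of the members was not tested.

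The genes whose pattern over the 12 libraries was most like that of a member were found by Pearson's r of log2(FPKM + 0.1), a description of libraries that fall into 6 groups. For *Chat* they were *Nos1* (r = 0.950), the neuronal nitric oxide synthase of another amacrine type, *Col25a1* (r = 0.948) and *Cep170b* (r = 0.934). *Th* was nearest to *Stum* (r = 0.957), *Abcb10* (r = 0.949) and *Tubgcp3* (r = 0.931), and *Npy* to *Zfp637* (r = 0.989), *Aspscr1* (r = 0.987) and *Lcmt1* (r = 0.986). Among the members, r was 0.911 for *Vip* and *Tac1*, 0.862 for *Chat* and *Slc5a7*, 0.860 for *Chat* and *Th* and -0.44 for *Chat* and *Npy*.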

How the data were processed

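Poly(A) RNA of mouse retina was sequenced as 12 libraries in 6 groups of 2. By the study's methods and the submitters' processing notes, the authors aligned paired reads with STAR 2.7.1a to GRCm38.p6, estimated abundances with RSEM 1.3.3, tested with edgeR 3.36.0 in R 4.1.0, and deposited FPKM of genes and of transcripts, rounded to 2 decimals, with no counts. The depth per library could therefore not be used, and the study's count test could not be rerun, so limma took its place.

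Groups were taken from the labels. Genes whose mean passed 1 FPKM in any group were kept (16471 of 55487), and log2(FPKM + 0.1) was fitted with limma 3.58.1 (lmFit and trended eBayes, R 4.3.3) as 6 group means with 6 residual degrees of freedom. Calls were made at a Benjamini-Hochberg adjusted p under 0.05 over all genes tested. Named genes were the 10 members, up to 4 genes a list with the largest change after NMDA in WT, the 3 genes most like *Chat*, *Th* and *Npy*, and *Pax6* and *Mapk10*. The members and lists were chosen with earlier results of these data known. Gene positions and transcript lengths came from GENCODE M21 (99.4% of genes matched) and promoter windows from RefSeq. The test was tried on simulated data. Alternatives were pseudocounts of 1 and 0.5, no filter, TPM, 75th-percentile scaling, a length correction (lowess, span 0.3), summed transcripts, no intensity trend, the spread of the compared groups alone, a replicate block, an unadjusted p under 0.05 with an absolute log2 fold change above 1 (2 of the study's limits, without its limit on variance-mean ratios), and each library left out in turn. Figures were drawn with Python 3.11.15, pandas 2.3.3 and matplotlib 3.10.9.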

Additional observations from a re-analysis of the deposited data

Results flagged for a closer look

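The following 12 results were picked out because the response to NMDA, tested as an interaction in limma, differed between genotypes. Over all genes tested, 49.7%, 51.4% and 17.7% were called in these comparisons, in the order given below. The members called were 6, 4 and 2 of 10, close to these shares or below them. Between WT and sh*Pax6* retinas the log2 responses differed by 2.27 for *Npy*, 2.01 for *Slc18a3*, 1.88 for *Cck*, 1.84 for *Tac1*, 1.79 for *Vip* and -1.13 for *Penk*. Between WT and JNK3 KO retinas they differed by 2.32 for *Npy*, 1.72 for *Cck*, -0.88 for *Vip* and -1.66 for *Slc5a7*. Between sh*Pax6* and JNK3 KO retinas they differed by -2.67 for *Vip* and -1.24 for *Tac1*. *Npy* and *Vip* kept their calls in all 22 alternatives to each of their comparisons, as did *Tac1* in both of its comparisons, and *Cck* lost that between WT and JNK3 KO retinas with the length correction. The limits of an unadjusted p under 0.05 and an absolute log2 fold change above 1 are not among the 22. Under them the difference of *Vip* between WT and JNK3 KO retinas (-0.88) was not called. The WT libraries enter the first 2 of these comparisons and the sh*Pax6* libraries the first and the last.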

How the results depend on the processing

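Of the changes of single members that the text gives, recomputed under each of the 22 alternatives, 1067 values kept direction and call, 36 gained a call, 85 lost one and 22 turned direction, the last all for changes that were not called. *Sst* after NMDA in WT retinas was -0.49 in TPM and -0.91 with the length correction, and it ran from -0.31 to 0.47 when libraries were left out in turn. In the same way *Tac1* in WT ran from -0.029 to 0.0084, *Sst* and *Npy* in sh*Pax6* retinas from -3.92 to 0.25 and from -0.35 to 0.088, and *Penk* in JNK3 KO retinas from -0.051 to 0.63. For the difference between WT and sh*Pax6* responses *Slc5a7* was 0.0070 with 75th-percentile scaling, 0.94 with the length correction and -0.63 to 0.58 without single libraries. Between sh*Pax6* and JNK3 KO responses *Npy* was -0.012 in TPM, -0.071 with 75th-percentile scaling, -0.36 with the length correction and -0.16 to 0.28 without single libraries, and *Chat* was -0.17 to 0.67 without them.

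The count of called members in WT was 8 in TPM. With the spread of the compared groups alone it was 1 in sh*Pax6* after NMDA, 1 for sh*Pax6* against WT under PBS and 7 for the difference between WT and JNK3 KO responses. In the same order the share of all genes called went from 30.2% to 5.93%, from 16.5% to 5.39% and from 51.4% to 58.2%. At an unadjusted p under 0.05 and an absolute log2 fold change above 1 the count of members was 0 for sh*Pax6* against WT under PBS, where 3 of 10 were at an unadjusted p under 0.05 in limma. Leaving out 1 library at a time gave 4 to 6 members in WT, 4 to 7 in sh*Pax6*, 0 to 7 in JNK3 KO, 0 to 3 for sh*Pax6* against WT under PBS, 0 to 0 for JNK3 KO against WT under PBS, and for the differences between responses 4 to 7 (WT and sh*Pax6*), 3 to 7 (WT and JNK3 KO) and 2 to 4 (sh*Pax6* and JNK3 KO). The causes were not tested.

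TPM lowered the median change of all genes in WT from -0.09 to -0.68 and the share of called genes that were higher from 43.5% to 20.9%. That share went from 63.4% to 48.6% in sh*Pax6* retinas with 75th-percentile scaling, and with the length correction from 32.4% to 46.9% for sh*Pax6* against WT under PBS. For the differences between responses it went in TPM from 36.8% to 16.1% (WT and sh*Pax6*) and from 45.7% to 22.8% (WT and JNK3 KO), and with 75th-percentile scaling from 68.2% to 51.5% (sh*Pax6* and JNK3 KO).

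With a replicate block the counts were 5, 7 and 3 after NMDA in WT, sh*Pax6* and JNK3 KO retinas, 2 and 0 under PBS, and 6, 4 and 2 for the differences between responses, as without it. The samples share only a number: deviations from the group means correlated at -0.10 to 0.09 over 15 pairs of groups. FPKM hold no depth, so what low values such as those of *Th* can show is limited by the 2 libraries a group.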
